A study of Rattus norvegicus with 18 samples.

Results

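The comparison asked which genes differed in rat cortical astrocytes grown for 5 days on immobilized beta-amyloid, the stretch from residue 25 to residue 35, against astrocytes on laminin and nitrocellulose alone. It used every array of these groups, 3 at 5 days and 6 controls, which are 9 of the 18 arrays in the series. The other 9 arrays hold 12 hours, 1 day and 3 days on the same peptide, 3 arrays each. They served to estimate the spread and to set the values at 5 days beside those at other times. Each array gave 1 signal, a linear brightness already scaled between arrays in the deposited table, for each of 1263 probe sets of a neurobiology chip. A probe set is a group of short probes read together for 1 transcript.

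The labels name type-I astrocytes of the cortex as the source of all 3 arrays at 5 days and of controls 3 to 6. For controls 1 and 2 the source label is cerebral cortex and the title says astrocytes. No label gives the time in culture of a control, so the peptide and the time in culture cannot be told apart. The labels do not say whether the arrays of a group came from separate cultures, and p-values therefore reflect only how these samples vary, which could be technical variation. Controls 4 to 6 are used as a second set of controls. They were picked with earlier results of these data known, because they lay nearest to the arrays at 5 days, so the differences from them and their p-values depend on that choice.

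Astrocytes are glial cells that clear glutamate and potassium, supply neurons with nutrients and antioxidants, and secrete complement, cytokines and growth factors when activated. The beta-amyloid peptide accumulates in plaques in Alzheimer's disease, and its fragment of residues 25 to 35 aggregates and is widely used to provoke cultured neural cells. Astrocytes around plaques are known for high levels of intermediate filament, metallothionein and complement proteins.

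Glul and Vim, which cultured astrocytes express strongly, were bright on all 9 arrays. At 5 days the glutamine synthetase gene Glul had signals of 7126, 9839 and 9689, against 11456, 5504, 5569.9, 8002, 9650.4 and 9021 in controls 1 to 6. The intermediate filament gene Vim had 18831, 14018 and 14887 at 5 days and 14575, 18648, 13441, 8770.4, 16453 and 15534 in the controls. Both genes overlapped between the groups, and neither passed the test. Of 19 astrocyte markers looked for, 10 were measured, while Gfap and Aqp4 were not analysed here. Among markers of other cells, Itgam, of microglia, was dim, with 24.7, 22.3 and 60.5 at 5 days and 51, 57.9, 65.8, 51.5, 37.3 and 55.7 in controls. Summed over its 13 measured genes, the neuron list had 5656 to 6063 at 5 days and 4122 to 7363 in controls. The 5 measured oligodendrocyte genes summed to 1751 to 1905 at 5 days and 1095 to 1918 in controls. The 3 measured fibroblast, meningeal and vascular genes summed to 11703 to 18948 at 5 days and 10475 to 25279 in controls. By its brightest probe set, no neuron, oligodendrocyte, microglia or fibroblast marker on these lists had all arrays at 5 days outside the range of the 6 controls. Over all 621 tested genes only 1.45% were above all 6 controls and 3.54% below, so a count of 0 in lists this short says little. The neuron marker Syn2 lay below all of controls 4 to 6. The part of these markers in the results below was not tested. Since these are bulk samples, fewer cells of a type and less RNA per cell cannot be told apart.

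The arrays at 5 days resembled 1 set of controls more than the other. Over all 1263 probe sets, the log2 values of the arrays at 5 days correlated with each other at 0.959 to 0.973. With controls 4 to 6 they correlated at 0.950 to 0.972, which is about the level among those controls, 0.955 to 0.968. With control 3 the values were 0.924 to 0.932, and with controls 1 and 2 they were 0.842 to 0.867. These are descriptions over probe sets of the same arrays. Controls 4 to 6 were picked because they lay nearest to the arrays at 5 days. The higher correlations with them, and the smaller count of folds given next, therefore follow from that choice and are no test. Mean folds of over 2 at 5 days were found for 222 probe sets (21.62%) against controls 1 to 3, and for 35 (3.41%) against controls 4 to 6, out of the 1027 probe sets bright enough to test.

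No probe set passed the test against controls 1 to 6. The test was limma's moderated test across all 1027 probe sets with Benjamini-Hochberg adjustment and a threshold of 0.05, and it called 0% of them. At an unadjusted p under 0.05 there were 94 probe sets (9.15%). An exact two-sided permutation test over the 9 arrays called 0 probe sets. With 84 splits of the arrays it could call any only if a large share of the 1027 had reached its smallest p. It therefore adds little to limma's result. The smallest possible p of the permutation test is 0.0238, which 55 probe sets reached, and its smallest adjusted p was 0.445. These 55 are the probe sets whose groups do not overlap. All 3 arrays at 5 days lay above all 6 controls for 22 of them (2.14%), and below for 33 (3.21%). Over everything tested the median log2 fold was -0.14 as deposited and 0.01 after cyclic loess, so a negative fold of that size lies at the middle of the distribution.

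Transferrin had the smallest p-values against controls 1 to 6. Tf encodes the iron-carrying protein of plasma, which glial cells also secrete. Probe set U31866_g_at had signals of 160.3, 102 and 120.3 at 5 days, against 11.6, 13.2, 12.2, 78.8, 25.3 and 24.6 in controls 1 to 6. Every array at 5 days lay above every control, and controls 1 to 3 were close to the floor of 11.3 that was set under all signals. The log2 fold was 2.56 ± 0.49 (SE, n = 3 and 6; adjusted p = 0.0804), a ratio of 5.91. Against controls 4 to 6 alone it was 1.78 ± 0.43 (adjusted p = 0.38), where control 4 was the highest control. Without control 4 the log2 fold against the other controls passed the threshold, with an adjusted p of 3.76e-04, and against controls 5 and 6 it was 2.33 with an adjusted p of 0.0319. Over 19 alternatives other than the replicate block, the adjusted p against all controls ranged from 3.76e-04 to 0.557.

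The other Tf probe sets ran the same way. D38380_g_at had 572, 394 and 370.1 at 5 days and 132, 131, 130.0, 182, 239 and 279 in controls, a log2 fold of 1.33 ± 0.27 (adjusted p = 0.0804). D38380_at had 762, 668 and 633 at 5 days and 223, 67.2, 247, 462, 339.6 and 463 in controls, a log2 fold of 1.43 ± 0.46 (adjusted p = 0.421). The groups did not overlap for either, and the folds against controls 4 to 6 were 0.93 and 0.72. The count past the threshold was 2 after quantile normalization, median centring or cyclic loess, and in each of these fits both calls were Tf probe sets. Of the other measured genes of iron, heme and copper handling, Hmox1, the stress-induced heme oxygenase, had 1838, 3953 and 4349.8 at 5 days and 5306, 5049, 4839, 1849, 3056 and 3075 in controls. Its log2 fold was -0.20 ± 0.34 against controls 1 to 6 and 0.29 against controls 4 to 6, with overlapping groups.

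**Figure D1:**
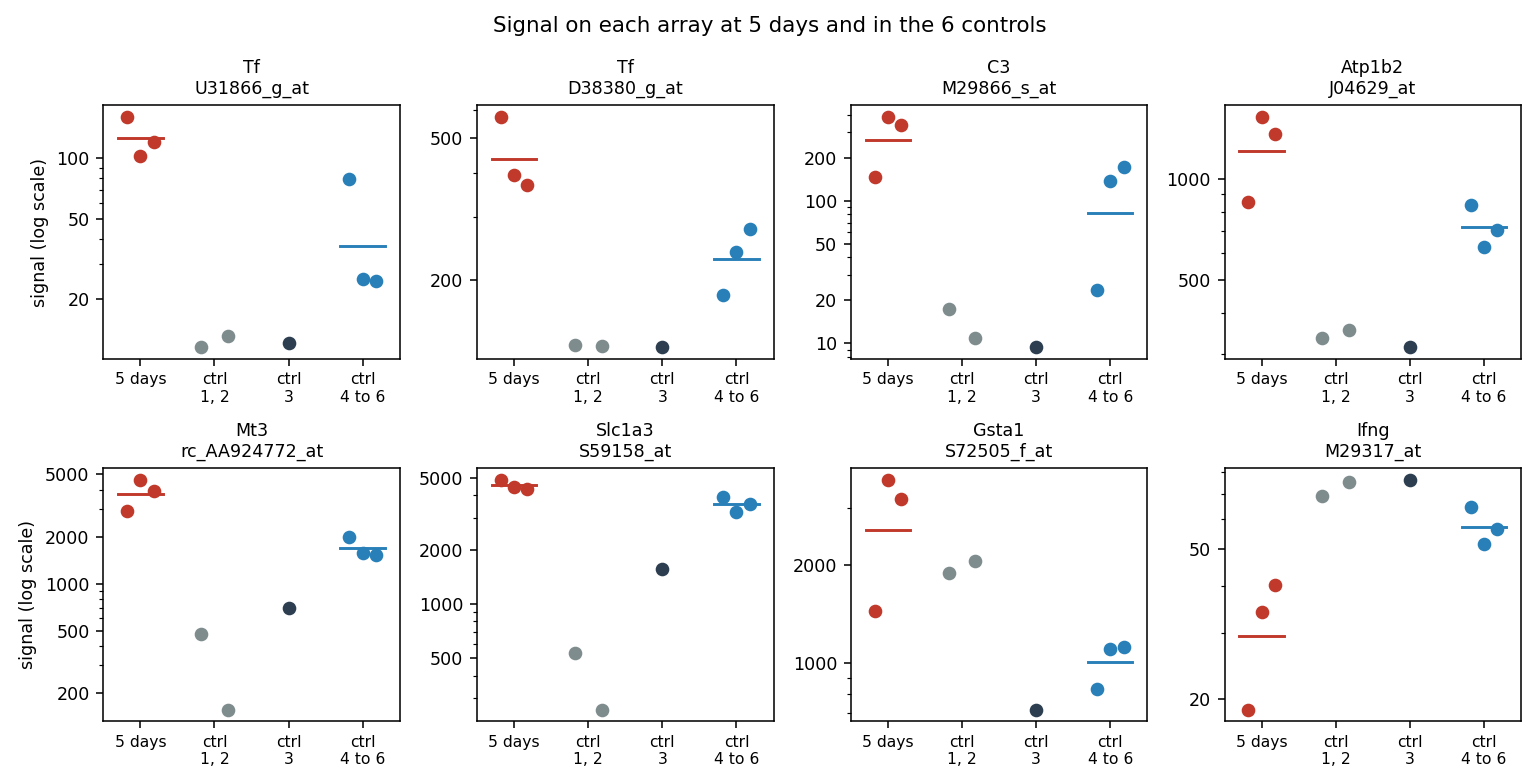
Each panel plots the deposited signal (log axis) of 1 probe set on every array, with 5 days at the left (red), then controls 1 and 2 (grey), control 3 (dark) and controls 4 to 6 (blue). Horizontal lines are geometric means of 3 arrays. Both Tf probe sets, Atp1b2, Mt3 and Slc1a3 are higher at 5 days than in every control and Ifng is lower, while C3 and Gsta1 overlap some controls.

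Complement C3 had the largest fold among the genes with the smallest p-values. C3 encodes the central complement component, which is cleaved to mark targets for uptake. Probe set M29866_s_at had 146, 385 and 338 at 5 days, against 17.3, 10.9, 9.4, 23.8, 137 and 171 in controls 1 to 6. Array 1 at 5 days lay below control 6, and controls 5 and 6 were far above controls 1 to 4. The log2 fold was 3.03 ± 0.76 against controls 1 to 6 (adjusted p = 0.206) and 1.70 ± 0.61 against controls 4 to 6 (adjusted p = 0.737). Without control 6 the fold against the other controls passed the threshold, with an adjusted p of 0.0363. Over the same alternatives it ranged from 0.0363 to 0.785, and the log2 fold against controls 4 to 6 was 0.80 without control 4. The second C3 probe set, X52477_at, had 104, 168 and 183 at 5 days and 111, 23.1, 58.3, 126, 102 and 92.1 in controls, a smaller log2 fold of 0.97 ± 0.46.

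Surface and transport proteins of astrocytes were among the higher signals. Atp1b2 encodes the beta subunit of the sodium pump that is typical of glia and also acts as an adhesion molecule. Its probe set J04629_at had 855, 1531 and 1362 at 5 days and 336, 355, 315, 836, 627 and 704 in controls, so the groups did not overlap, although array 1 was only just above control 4. The log2 fold was 1.31 ± 0.33 (adjusted p = 0.206), and 0.76 against controls 4 to 6. The second Atp1b2 probe set, D90048exon_g_at, had 597, 988 and 834 at 5 days and 91.6, 195, 84.6, 661, 335 and 602 in controls. Its groups overlap, with array 1 below controls 4 and 6. Its log2 fold was 1.70 ± 0.75 (limma adjusted p = 0.503), and 0.63 against controls 4 to 6. Slc1a3, the glutamate transporter GLAST, had 4874, 4423 and 4329 at 5 days and 533, 259.8, 1556, 3928, 3215 and 3560.1 in controls. Its log2 fold of 1.64 ± 0.95 (adjusted p = 0.539) came mainly from controls 1 to 3, since against controls 4 to 6 it was 0.35. Slc1a3 has 4 probe sets, of which S75687_s_at also lay above all controls, X63744_g_at overlapped them, and the dim X63744_at had a negative log2 fold of -0.57.

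The other glutamate transporter, Slc1a2, had 1 dim probe set above all controls and 2 that overlapped them. The dim probe set rc_AI044517_g_at had 51.7, 111 and 68.5 at 5 days and 18.2, 45.8, 38.6, 38.1, 24.4 and 38.8 in controls, a log2 fold of 1.18 ± 0.31 (adjusted p = 0.272), and 1.15 against controls 4 to 6. U15098_at had 79.3, 74.4 and 80.6 at 5 days and 80.7, 89.7, 36.5, 97.7, 107 and 97.8 in controls, with a log2 fold of -0.04. The third, rc_AI044517_at, had a log2 fold of -0.24, so the probe sets of this gene disagree. The calcium-binding protein gene S100a1 was above all controls in both of its named probe sets, with log2 folds of 0.80 ± 0.24 and 1.07 ± 0.34 (adjusted p = 0.412 and 0.412). Its brighter probe set had 1121, 1252 and 1400.3 at 5 days and 841, 588, 428, 664, 937 and 1059 in controls. S100b, the family member commonly used as an astrocyte marker, had 783, 1057 and 1002 at 5 days and 401, 19.7, 662, 930.3, 1029.8 and 1209 in controls, which overlap.

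Of the 10 measured astrocyte markers, 0 passed the test, 3 were above all 6 controls (Slc1a3, Mt3 and Atp1b2) and 0 were below. Over all 621 genes tested, each by its brightest probe set, 1.45% were above all 6 controls and 3.54% below. Against controls 4 to 6, 3 markers were above and 1 (Slc1a2) was below, beside 2.9% and 12.1% of all genes. The median log2 fold of the markers was 0.87 against controls 1 to 6 and 0.24 against controls 4 to 6, beside -0.16 and -0.12 for all genes. Their summed signal was 47233 to 49309.9 at 5 days and 29416 to 43512 in controls. Apoe, the main lipid carrier secreted by astrocytes, had 5256, 6986 and 7215 at 5 days and 3291, 956, 1302, 4313, 4393 and 5594 in controls, with array 1 below control 6. Gja1, for the gap junction protein connexin 43, had 1799, 1313 and 1059 at 5 days and 4269.5, 8604, 811, 1893, 1504 and 1489 in controls, where controls 1 and 2 were the brightest and control 3 the dimmest.

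Metallothioneins are small proteins that bind zinc and copper and scavenge oxidants, and 3 of them were measured. Their genes are neighbours on rat chromosome 19, all on the minus strand (RefSeq, build GRCr8). Metal response elements, to which a zinc-sensing factor binds, share a short core, so the 250 bases before each gene start are printed here with every match to TGCACNC or TGCGCNC, on either strand, in capitals. Mt1 spans chr19:10832976-10833225, Mt2A chr19:10838709-10838958 and Mt3 chr19:10856081-10856330, each read 5′ to 3′ along the gene.
Mt1: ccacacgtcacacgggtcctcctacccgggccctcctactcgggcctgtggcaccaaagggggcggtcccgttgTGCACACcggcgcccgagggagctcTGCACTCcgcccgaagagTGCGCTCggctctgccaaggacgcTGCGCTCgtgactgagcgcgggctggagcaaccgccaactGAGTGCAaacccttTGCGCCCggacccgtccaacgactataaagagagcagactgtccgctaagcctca
Mt2A: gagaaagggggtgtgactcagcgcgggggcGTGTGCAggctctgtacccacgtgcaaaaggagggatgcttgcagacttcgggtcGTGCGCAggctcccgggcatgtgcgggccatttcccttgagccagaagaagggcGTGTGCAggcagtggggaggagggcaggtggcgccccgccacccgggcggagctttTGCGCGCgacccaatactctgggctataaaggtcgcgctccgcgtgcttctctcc
Mt3: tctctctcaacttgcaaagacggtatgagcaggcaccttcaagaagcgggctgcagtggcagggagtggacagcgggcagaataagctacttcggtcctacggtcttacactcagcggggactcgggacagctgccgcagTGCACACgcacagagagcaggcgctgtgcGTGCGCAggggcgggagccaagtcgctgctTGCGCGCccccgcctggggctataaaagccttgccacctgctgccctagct
There were 6 matches before Mt1, 4 before Mt2A and 3 before Mt3, none of them overlapping. Of 33469 rat promoters of this length, 20.6% held at least 1 match and 1.17% at least 3. A match is a run of letters and not a binding site.

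Mt3, the brain form, was the metallothionein that stood above every control. It had 2914, 4629 and 3902 at 5 days and 474, 156, 694, 2001, 1565 and 1516 in controls, a log2 fold of 2.25 ± 1.06 (adjusted p = 0.52). Against controls 4 to 6 its log2 fold was 1.16 ± 1.15, a ratio of 2.23. This SE rests on the spread within all groups of the fit, the other exposure times included, and not on the arrays compared alone. Mt1 had 3207, 3789 and 3602 at 5 days and 1530.2, 846, 812, 2667, 2704 and 3251 in controls, a log2 fold of 1.05 ± 0.39 (adjusted p = 0.469), with array 1 just below control 6. Mt2A was among the brightest genes and had 17805, 14537 and 15526 at 5 days and 1798, 461, 516, 16156, 12609 and 13664 in controls. Controls 4 to 6 reached the level at 5 days for Mt2A, and its log2 fold was 2.29 against controls 1 to 6 and 0.18 against controls 4 to 6. All 3 genes were dimmer in controls 1 to 3 than in controls 4 to 6.

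The antioxidant genes beside them gave mixed folds. Gsta1 encodes a glutathione transferase that detoxifies lipid peroxidation products. Its probe set S72505_f_at had 1449, 3682 and 3213 at 5 days and 1893, 2062, 716, 832, 1104 and 1118 in controls, with array 1 below controls 1 and 2. The log2 fold was 1.11 ± 0.37 (adjusted p = 0.443) against controls 1 to 6 and 1.35 ± 0.35 (adjusted p = 0.38) against controls 4 to 6, which lay below all 3 arrays at 5 days. The second Gsta1 probe set, X78848cds_f_at, had smaller log2 folds of 0.46 and 0.65, in that order. It also overlapped controls 1 to 6 and lay above controls 4 to 6. Glutathione transferase genes of this class are similar in sequence, and a probe set of this kind may read several of them. Of the 9 measured metallothionein and antioxidant genes, 0 passed the test, and 1 (Mt3) was above and 0 below all 6 controls, beside 1.45% and 3.54% of all genes. Their median log2 fold was 0.52 against controls 1 to 6 and 0.29 against controls 4 to 6, beside -0.16 and -0.12 for all genes.

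Secreted and signalling molecules were also among the higher signals. Penk encodes proenkephalin, the precursor of opioid peptides. Its probe set S49491_s_at had 1595, 4132 and 3780.3 at 5 days and 232, 578, 1054, 1128, 1469.5 and 1595 in controls, where array 1 was level with control 6. The log2 fold was 1.78 ± 0.68 (adjusted p = 0.469), while the dim second probe set, rc_AI009300_at, had a log2 fold of -0.35. Fgfr1, a receptor of fibroblast growth factors, had 3365, 4316 and 4014 at 5 days and 3571, 2642, 1930.5, 2429, 2952 and 1982 in controls by S54008_i_at. Only control 1 reached the values at 5 days in this probe set, and the log2 fold was 0.62 ± 0.19 (adjusted p = 0.412) against controls 1 to 6 and 0.68 against controls 4 to 6. Probe set D12498_s_at of Fgfr1 had 2454, 4124 and 4228 at 5 days and 4276, 3417, 2247, 2210, 2775 and 2708.5 in controls, which overlap. Its log2 fold was 0.29 (limma adjusted p = 0.614). Maob, the monoamine oxidase typical of astrocytes, had a log2 fold of 1.07 ± 0.41 (adjusted p = 0.469), with 202 to 293 at 5 days and 58.8 to 233 in controls.

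Chrna7, a nicotinic receptor subunit permeable to calcium, had probe sets that disagree. L31619_g_at had 103, 110.5 and 164 at 5 days and 73.6, 28.2, 27.3, 82.3, 56.2 and 38.5 in controls, above all of them, with a log2 fold of 1.41 ± 0.43 (adjusted p = 0.412). L31619_at and S53987_at, of the same gene, had log2 folds of -0.47 and -1.13 with overlapping groups. Hrk, a cell death activator of the Bcl2 family, had 141, 73.8 and 153 at 5 days and 20.6, 36.6, 58.8, 42, 69.7 and 55.5 in controls, a log2 fold of 1.41 ± 0.49 (adjusted p = 0.469). Its probe sets disagree as well, since rc_AA925846_s_at and rc_AI102299_s_at had -0.04 and -0.66.

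Interferon gamma had the smallest p-value among the lower signals, at dim values. Ifng encodes a cytokine made mainly by lymphocytes. It had 18.7, 34 and 40.1 at 5 days and 69.2, 75.5, 76.5, 64.8, 51.7 and 56.4 in controls, with every array at 5 days below every control. The log2 fold of this probe set, M29317_at, was -1.14 ± 0.27 (adjusted p = 0.206), and -0.96 ± 0.32 against controls 4 to 6 (adjusted p = 0.732). A second Ifng probe set, AF010466_s_at, was too dim to be tested. It had 5.8, 22.5 and 13.7 at 5 days and 12.7, 16.9, 82.1, 8.2, 9.9 and 44.3 in controls, which overlap, with a log2 fold of -0.51. Slc18a2, the vesicular monoamine transporter, had 71.9, 42.7 and 37.6 at 5 days and 141, 70, 79.5, 101, 86.3 and 103 in controls, a log2 fold of -0.95 ± 0.27 (adjusted p = 0.36). Array 1 at 5 days overlapped control 2 for this gene. P2rx1, an ATP-gated channel subunit, had 13.3, 15.3 and 22.3 at 5 days and 49.3, 54.2, 62.4, 19.4, 51 and 43.8 in controls, and control 4 alone reached the values at 5 days.

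The caspase gene Casp6, whose product cleaves proteins during cell death, was below every control in both of its probe sets. AF025670_g_at had 120.3, 137 and 159.8 at 5 days and 329, 366, 226, 208, 172 and 214 in controls, a log2 fold of -0.82 ± 0.28 (adjusted p = 0.469). The dimmer AF025670_at had a log2 fold of -1.26 ± 0.47. Bax, a Bcl2 family protein that opens mitochondria during cell death, was bright and had 5329, 4814 and 5121 at 5 days and 6915, 6209, 7058, 5926, 5639 and 5428 in controls. In this probe set, U59184_at, all arrays at 5 days were below all controls, by a log2 fold of -0.28 ± 0.14 (adjusted p = 0.52), and the gap to control 6 was small. Probe sets S76511_s_at and U49729_at of Bax overlapped the controls, with log2 folds of -0.54 and -0.22. Of 12 measured genes of apoptosis, each by its brightest probe set, 0 passed the test. Of these genes 2 (Casp6 and Bax) were below and 0 above all 6 controls, beside 3.54% and 1.45% of all genes. The Hrk probe set whose signals are given above is not its brightest, and it lay above all 6 controls. Their median log2 fold was -0.20, beside -0.16 for all genes.

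The remaining genes with the smallest p-values in the lower direction had differing functions, and most were dim. Bdnf, a neurotrophin, had 51, 29.2 and 15.7 at 5 days and 107, 89.1, 123, 92.3, 36.9 and 93.4 in controls, a log2 fold of -1.57 ± 0.57 (adjusted p = 0.469), with control 5 apart from the other controls. The other 6 probe sets of Bdnf had log2 folds of -1.16 to 0.23. Stxbp2, which guides vesicle fusion outside neurons, had 90.2, 29.1 and 57.9 at 5 days and 104, 135, 109, 93.8, 91 and 135 in controls, below all of them by a narrow margin, while its second probe set, rc_AA964359_s_at, had a log2 fold of 0.05. Insr, the insulin receptor, had 278, 260.1 and 221 at 5 days and 361, 350.0, 391, 301, 298 and 349 in controls, also without overlap, with a log2 fold of -0.43 ± 0.15 (adjusted p = 0.469). Grin2c, a glutamate receptor subunit, Kcnk1, a potassium leak channel, Ins1, Atp2b1, a calcium pump, and Itgb3, an integrin subunit, completed the group. Their log2 folds were -0.97, -0.76, -0.81, -0.72 and -0.67, in that order, with adjusted p-values of 0.412 to 0.469. Of these 5 only Kcnk1 lay below all 6 controls.

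**Figure D2:**
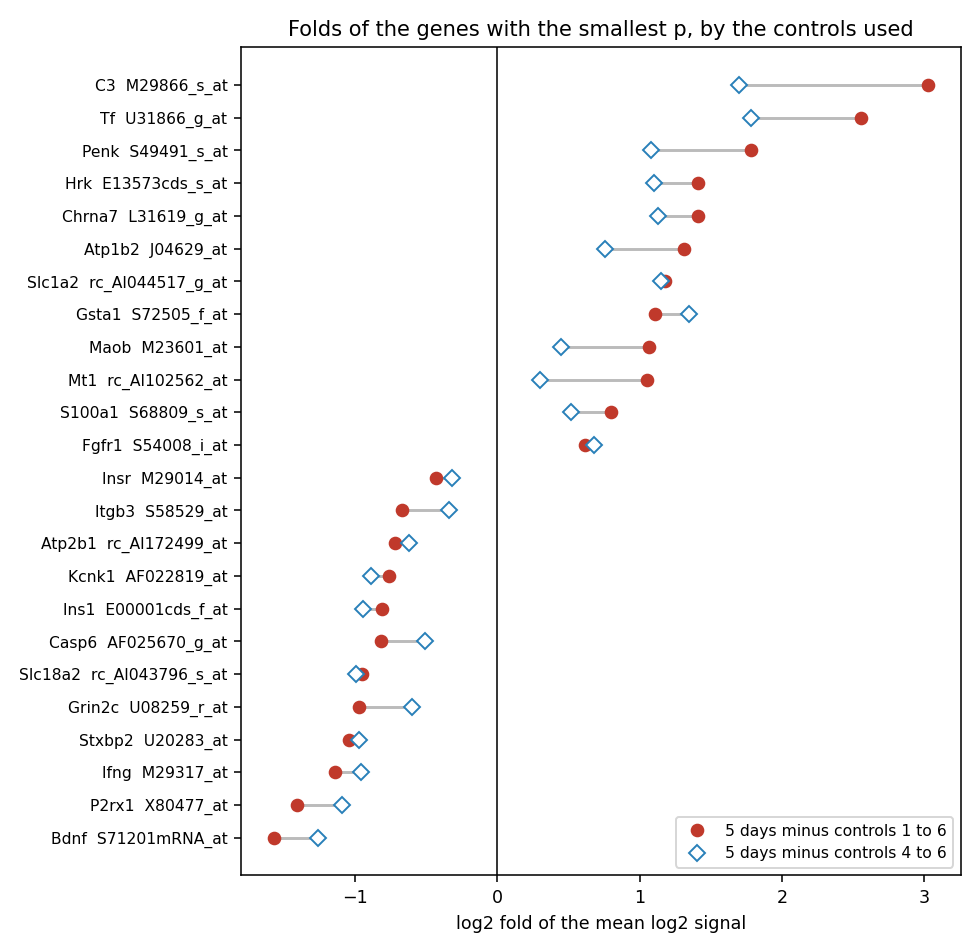
Log2 folds of the 24 genes with the smallest p-values against controls 1 to 6, 12 in each direction. Red circles are folds against controls 1 to 6 and blue diamonds folds of the same probe sets against controls 4 to 6. All 24 keep their sign, and the grey lines are longest for C3, Tf, Mt1 and Penk.

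All 24 of these genes had the same sign against controls 4 to 6, which are 3 of the same 6 controls, so this is no second test. The plot of folds by control set shows that the log2 fold of C3 was 1.70 without controls 1 to 3 and 3.03 with them, and that of Mt1 0.30 without and 1.05 with them. Slc1a2, Fgfr1, Gsta1, Slc18a2 and Ins1 moved little or became larger.

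The inducible inflammatory genes Ccl5, Cx3cl1, Vcam1, Ptgs2 and Nos2 overlapped the controls. Ccl5, a chemokine for T cells and monocytes, had 11.7, 13.4 and 13 at 5 days and 1496, 24.2, 14.7, 12.4, 11.4 and 17.3 in controls, where control 1 alone was bright. Its log2 fold of -1.38 against controls 1 to 6 became -0.09 against controls 4 to 6. Cx3cl1, a membrane-bound chemokine, had 204, 254 and 349.7 at 5 days and 580.0, 534, 261, 285, 286 and 476 in controls. For Cx3cl1 array 3 at 5 days lay above 3 of the controls, and the other 2 arrays below all of them. Vcam1, an adhesion molecule for leukocytes, had a log2 fold of 0.59 ± 0.31 (adjusted p = 0.52), with 299 to 359.8 at 5 days and 145 to 422 in controls. Its second probe set, M84488_at, had 317, 199.9 and 149 at 5 days and 47.5, 3.4, 8.4, 288, 123 and 124 in controls, a log2 fold of 1.95 ± 0.93 (adjusted p = 0.52) that was 0.37 against controls 4 to 6. Ptgs2, the inducible prostaglandin synthase, had 453, 201 and 195 at 5 days and 1407, 762, 398, 172, 173 and 250.2 in controls. Nos2, the inducible nitric oxide synthase, had 628, 316 and 672 at 5 days and 127, 552, 509, 563, 819 and 401 in controls.

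Of the 20 measured cytokines, chemokines and adhesion genes, 0 passed the test, 2 (Ifng and Il1rn, an interleukin-1 receptor antagonist) were below and 0 above all 6 controls, beside 3.54% and 1.45% of all genes. Their median log2 fold was -0.31 against controls 1 to 6 and -0.24 against controls 4 to 6, beside -0.16 and -0.12 for all genes. Of the 12 measured genes of cytokine receptors and the Jak-Stat pathway, 0 were above or below all 6 controls, with a median of -0.01. The 5 inflammatory enzymes had a median of 0.24 against controls 1 to 6 and -0.16 against controls 4 to 6, so the sign of that list depends on the controls.

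Growth factor genes varied with the controls. Igf2, a growth factor made by meningeal cells and fibroblasts, had 268, 229 and 246 at 5 days and 3729.6, 8043, 532, 284, 220.2 and 211 in controls. Controls 1 and 2 were the bright ones, and the log2 fold was -1.64 against controls 1 to 6 and 0.06 against controls 4 to 6. The 9 measured genes of the insulin-like growth factor axis had a median of -0.43 against controls 1 to 6 and 0.01 against controls 4 to 6. Of these 9 genes 1 (Insr) was below and 0 above all 6 controls, beside 3.54% and 1.45% of all genes. The 12 neurotrophin and receptor genes had medians of 0.21 and 0.02, and the 10 growth factor and receptor kinase genes had 0.05 and -0.18. In these last 2 lists 0 genes lay outside all 6 controls.

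Receptor and channel genes had medians at or slightly below that of all genes, with few members outside the controls. Over all 621 genes 1.45% were above all 6 controls and 3.54% below, and these shares stand beside each count in this paragraph. Of 36 potassium channel genes, 0 were above all 6 controls and 2 (Kcnj16 and Kcnk1) were below, with a median log2 fold of -0.16. The medians were -0.30 for 17 glutamate receptor genes, -0.30 for 15 GABA and glycine receptor genes, -0.27 for 18 acetylcholine receptor genes and -0.26 for 22 monoamine receptor genes. By their brightest probe sets, at most 1 gene in each of these 4 lists was below all 6 controls (Grin2d, Chrnb1 and Adrb3) and 0 were above. Chrna7, an acetylcholine receptor gene, was above all 6 by L31619_g_at, which is not its brightest probe set. The 14 sodium channel genes had a median of -0.20 with 1 gene (Scn2a) below all controls. Nalcn, the sodium leak channel, had 249, 130.5 and 132 at 5 days and 73.8, 161, 146, 264, 171 and 173 in controls, a log2 fold of 0.08 ± 0.50. The 27 exocytosis genes had a median of -0.24, with 0 genes outside all 6 controls by their brightest probe sets.

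Stress and signalling lists had medians of -0.19 to 0.15, beside -0.16 for all genes. The 6 heat shock genes had a median of 0.02 and the 9 immediate early genes 0.15, with 0 of either outside all 6 controls. Of 14 MAP and calmodulin kinase genes, 2 were below all 6 controls, beside 3.54% of all genes, with a median of -0.19. One was Map2k1, a kinase that activates ERK, with 1560.3, 1908 and 1816 at 5 days and 3269.6, 3588, 2283, 1987, 2024 and 1994 in controls, a log2 fold of -0.48 ± 0.21 (adjusted p = 0.503). The other was Camkk1, which activates calmodulin-dependent kinases, with a log2 fold of -0.72 ± 0.29 (adjusted p = 0.469). Of 4 measured genes around the amyloid precursor, which include Apoe and the tau gene Mapt, 0 lay outside all 6 controls, with medians of 0.20 against controls 1 to 6 and 0.13 against controls 4 to 6. App itself was not analysed here. Mapt had 713, 563 and 632 at 5 days and 318, 231, 286, 845, 416 and 415 in controls, where control 4 was above all arrays at 5 days.

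**Figure D3:**
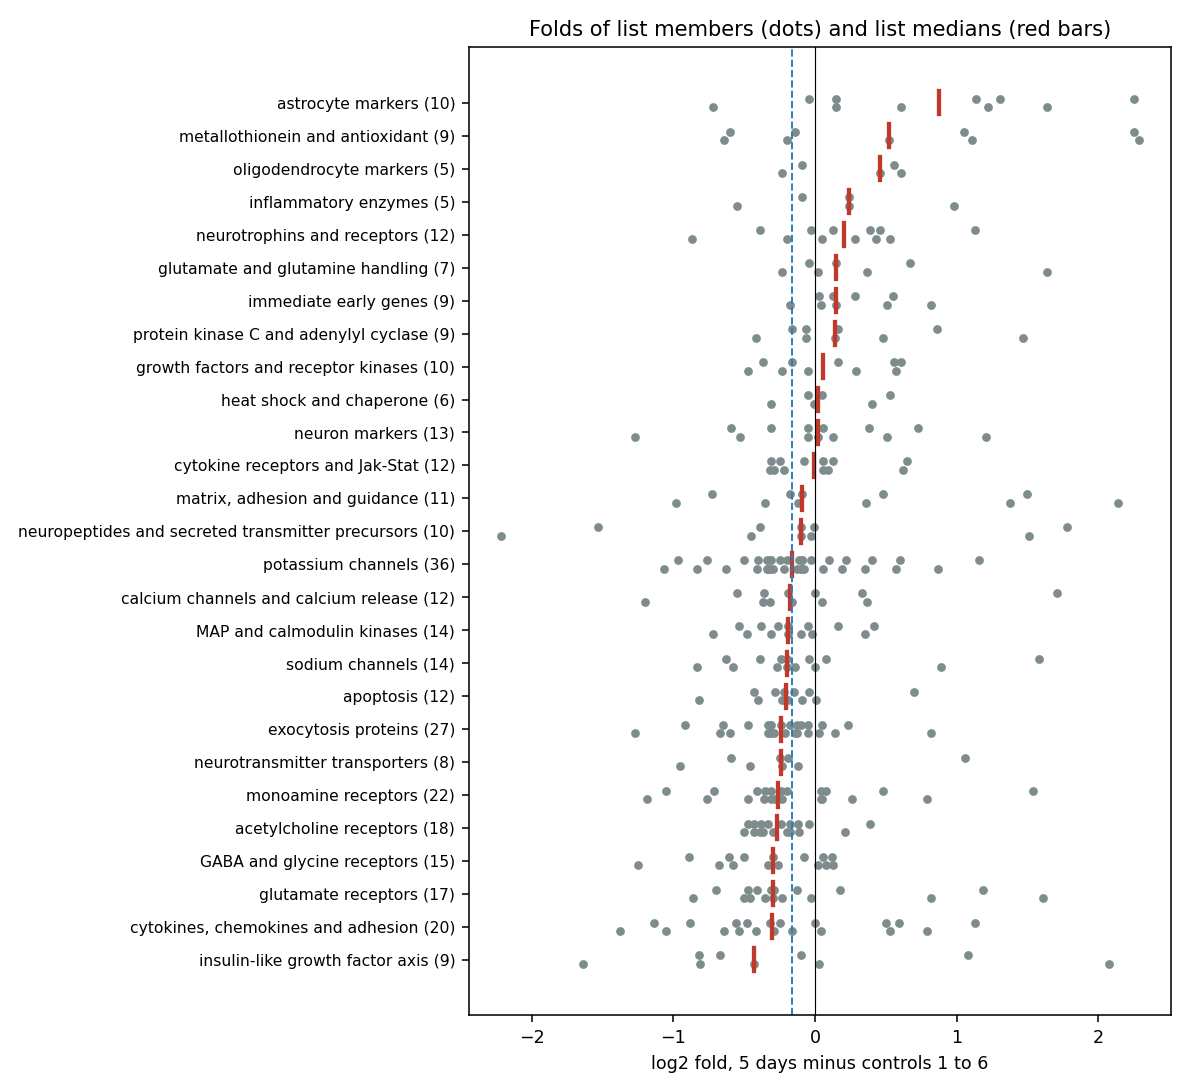
Log2 folds at 5 days against controls 1 to 6 for the tested genes (grey dots, 1 probe set per gene) of each list with at least 5 of them. Red bars are list medians, the dashed blue line is the median of all 621 genes (-0.16), and the number of genes is in parentheses. Astrocyte markers have the highest median (0.87) and the insulin-like growth factor axis the lowest (-0.43) of the lists shown.

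Against controls 4 to 6 alone, 0 of 1027 probe sets passed the test (0%), and 44 (4.28%) had an unadjusted p under 0.05. All arrays at 5 days lay above these 3 controls for 41 probe sets (3.99%) and below them for 109 (10.6%). The smallest adjusted p was that of Gabrg3, a GABA receptor subunit, with 21.3, 16.2 and 17.7 at 5 days and 58.5, 94.1 and 106 in controls 4 to 6, a log2 fold of -2.19 ± 0.43 (adjusted p = 0.247). In controls 1 to 3 it had 16.6, 48.6 and 14.7, so 2 of these were as dim as the arrays at 5 days. Syn2, a synaptic vesicle protein, had 17, 21.5 and 5.7 at 5 days and 46.1, 40.2 and 71.8 in controls 4 to 6, a log2 fold of -1.67 ± 0.38 (adjusted p = 0.38). Camk2d, a calcium-dependent kinase, had 137, 69.1 and 82.2 at 5 days and 159.9, 157 and 229 in controls 4 to 6, a log2 fold of -0.96 ± 0.26. The other 4 probe sets of Camk2d had folds of -0.11 to 0.02 against these controls.

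Other genes with the smallest p-values against controls 4 to 6 were the channel genes Scn9a and Kcna4 in the lower direction, with log2 folds of -1.21 and -1.0. In the higher direction they included Mapk14, the stress-activated p38 kinase, and Grina, with a log2 fold of 0.57 ± 0.17 (adjusted p = 0.44). Mapk14, by rc_AI171630_s_at, had 732, 792 and 722 at 5 days and 234, 634 and 406 in controls 4 to 6, a log2 fold of 0.93 ± 0.35 (adjusted p = 0.813). Its other 5 probe sets had -0.03 to 0.27. In controls 1 to 3 rc_AI171630_s_at of Mapk14 had 1606, 2400.3 and 982, all above the arrays at 5 days, and the log2 fold against controls 1 to 6 was -0.06. Hspb1, a small heat shock protein, and Cacna2d1, a calcium channel subunit, were bright and below controls 4 to 6, with log2 folds of -0.41 and -0.59, but had positive folds of 0.53 and 1.71 against controls 1 to 6. The other Hspb1 probe sets, M86389cds_s_at and rc_AA998683_g_at, overlapped controls 4 to 6, with log2 folds of -0.01 and -0.15. For the probe sets of Mapk14, Hspb1 and Cacna2d1 that lay outside controls 4 to 6, the direction depends on the controls chosen.

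More probe sets passed the test when 5 days was set against the 9 arrays of the other exposure times. Against the mean of 12 hours, 1 day and 3 days, 22 of 1027 probe sets (2.14%) passed the test, of which 17 (1.66%) were higher at 5 days and 5 (0.487%) lower. At an unadjusted p under 0.05 there were 270 (26.3%). The arrays of the other times were not alike. All 3 arrays at 12 hours, array 3 at 1 day and array 3 at 3 days correlated with controls 1 and 2 at 0.937 to 0.976 and with the arrays at 5 days at 0.838 to 0.877. The remaining 4 arrays correlated with controls 1 and 2 at 0.869 to 0.909 and with 5 days at 0.920 to 0.949. Without the first 5 of these arrays, a choice made after seeing the data, 0 of 1027 probe sets passed limma's test of 5 days against the mean of 1 day and 3 days, with 126 at an unadjusted p under 0.05 and a smallest adjusted p of 0.0742. Igf2, a marker of fibroblasts and meningeal cells, had 268, 229 and 246 at 5 days, below all other exposed arrays at 471 to 8744 (adjusted p = 0.136). Summed over the 3 measured fibroblast, meningeal and vascular genes, the signal was 11703 to 18948 at 5 days and 6731 to 30210.0 at the other times, and its part in these calls was not tested.

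Among the 22 probe sets, those higher at 5 days and with a gene symbol stood for 12 genes. Tf, by D38380_g_at, rose to 572, 394 and 370.1 at 5 days, against 94.4 to 234 on the 9 other arrays, a log2 fold of 1.75 ± 0.25 (adjusted p = 0.00445). Atp1b2 rose to 855, 1531 and 1362, against 247 to 682, a log2 fold of 1.73 ± 0.31 (adjusted p = 0.0176). For both genes every array at 5 days was above every array at the other times. Leaving out single arrays kept D38380_g_at of Tf past the threshold in 12 of 12 fits and J04629_at of Atp1b2 in 10 of 12. U31866_g_at of Tf stayed past the threshold in 9 of 12, and D90048exon_g_at of Atp1b2 in 2 of 12. Every other gene named here stayed past it in at most 2 of these 12 fits.

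C3 rose to 146, 385 and 338 at 5 days, against 4.0 to 119.7 at the other times, a log2 fold of 3.44 ± 0.72 (adjusted p = 0.0417). Mt1 rose to 3207, 3789 and 3602 at 5 days, against 875 to 1572, a log2 fold of 1.61 ± 0.37 (adjusted p = 0.0434). Neither overlapped the other times. Grik5, a kainate receptor subunit, had a log2 fold of 1.75 ± 0.37 (adjusted p = 0.0417), and Slc6a15, a neutral amino acid transporter, 2.21 ± 0.50 (adjusted p = 0.0434). Nr4a1, an immediate early transcription factor, had 1.57 ± 0.39 (adjusted p = 0.0497).

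Lower than at the other times were Itgb3, with a log2 fold of -1.03 ± 0.22 (adjusted p = 0.0417), and Ncs1, a neuronal calcium sensor, with -1.33 ± 0.29 (adjusted p = 0.0417). Ncs1 had 93.6, 102 and 77.3 at 5 days, against 154 to 305 at the other times. Cd44, the hyaluronan receptor, was dim, with 11.8, 3.9 and 18.9 at 5 days and 23.7 to 75.5 at the other times, a log2 fold of -1.59 ± 0.38 (adjusted p = 0.0434). Kcnma1, a calcium-activated potassium channel, passed the test by U55995_at (adjusted p = 0.0434), with 8.8, 4.3 and 4.3 at 5 days, all under the floor. This probe set had 43.4 to 50.2 at 12 hours, 42.5 to 54.3 at 1 day and 6.2 to 16.8 at 3 days. The arrays at 5 days overlapped those at 3 days, and the fitted log2 difference of -1.44 depends on the floor. The brighter probe set AF083341_s_at of Kcnma1 had a positive log2 fold of 0.75 against the other times.

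**Figure D4:**
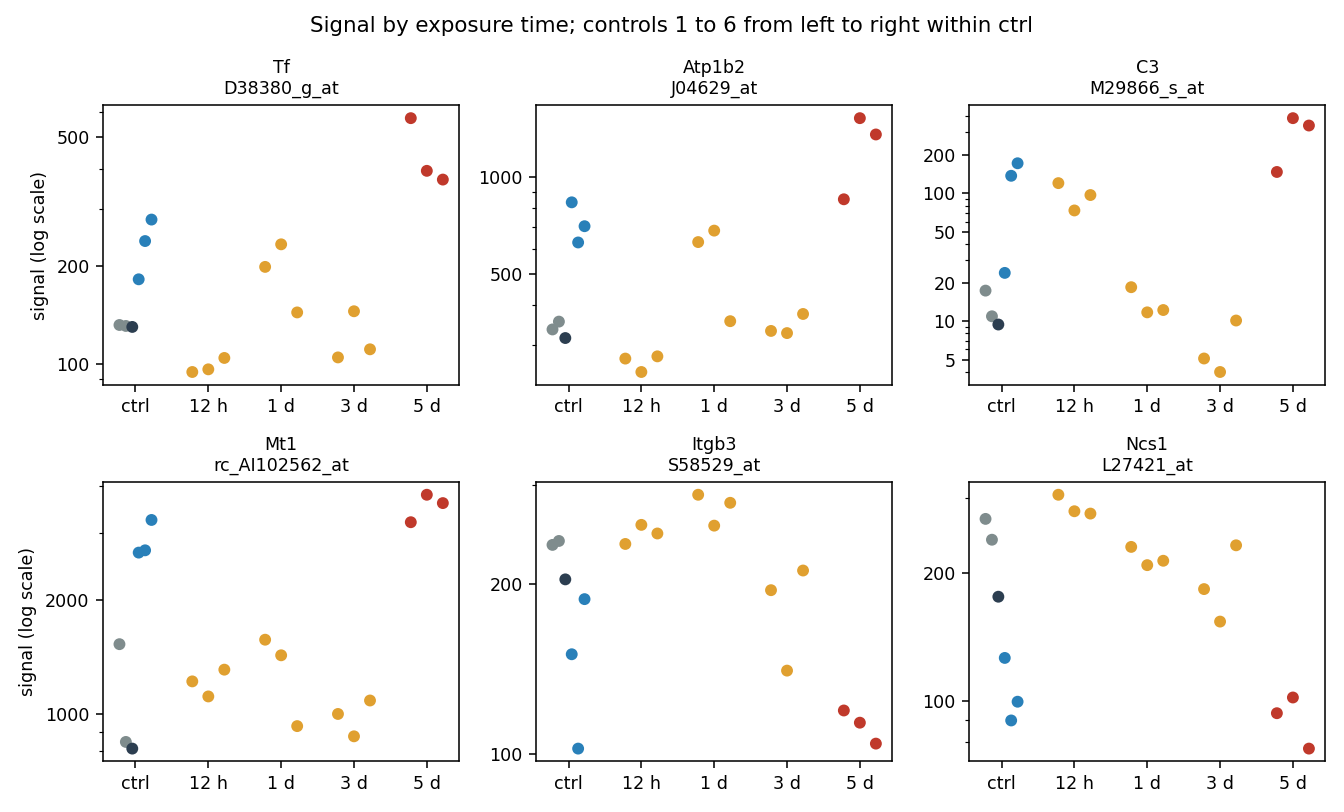
Deposited signal (log axis) of 6 probe sets on all 18 arrays, by time on the peptide, with controls at the left (controls 1 and 2 grey, control 3 dark, controls 4 to 6 blue), then 12 hours, 1 day and 3 days (orange) and 5 days (red). For Tf, Atp1b2, C3 and Mt1 the arrays at 5 days lie above those of the other times, and for Itgb3 and Ncs1 below, while single controls 4 to 6 lie anywhere from the level of the other times to that of 5 days.

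Controls 4 to 6, which had no peptide, lay on the same side of the other times as 5 days for several of these genes. Mt1 had 2667, 2704 and 3251 in controls 4 to 6, above the highest value of 1572 at the other times. Ncs1 had 126, 90 and 99.6 in controls 4 to 6, below the lowest value of 154 at the other times. Of the 22 probe sets that differed from the other times, 17 (77.3%) had arrays at 5 days within the range of controls 4 to 6 or overlapping it, beside 85.4% of all 1027. Those outside all of controls 1 to 6 were 5 of the 22, beside 55 of all 1027. These 5 were 2 of Tf, 1 of Atp1b2, 1 of Ctnnd2, a catenin chosen here after its values were seen, and 1 without a symbol. The number of calls against the other times varied from 1 to 26 when single arrays were left out, and Tf was among them in each case. Without array 2 or array 3 at 5 days it was 1, and without 1 day array 3 it was 26.

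The 3 arrays at 5 days also differed among themselves. Array 1 was over 2-fold above both others for 35 probe sets and over 2-fold below both for 36. The counts were 10 and 28 for array 2, and 21 and 27 for array 3. Array 1 had the lowest signal of the group for C3, Penk, Gsta1, Atp1b2, Mt3 and Ifng, and the highest for all 3 Tf probe sets. For C3, Penk and Gsta1 it was over 2-fold below both other arrays, within or next to the range of the controls.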

How the data were processed

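Signals of 18 arrays were taken from the table the authors deposited, an intensity per probe set on a linear scale, per the file headers. The software behind the values is not given in the sources used here. The mean after trimming 2% at each end was 502.1 to 502.6 on every array, so the values were not scaled again. Median signals of the 9 arrays compared were 105.4 to 133.1, and 6.33% to 11.56% of probe sets lay at or under the floor. Precision is limited by the number of arrays.

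The 59 control probe sets were left out. Signals below 11.3 (10th percentile) were set to it, log2 was taken, and probe sets above 44.9 (30th percentile) on at least 3 arrays were tested, 1027 of 1263. All arrays were fitted in 5 groups in limma 3.58.1 (R 4.3.3), two-sided, with 13 residual degrees of freedom. Folds are differences of mean log2 values. For controls 4 to 6, controls 1 to 3 were left out of the fit. The procedure was tested on simulated data.

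Platform annotation gave 1 symbol to 1137 probe sets, several to 8 and none to 118, and only the first were named. Named genes are those with the smallest p-values, 12 in each direction against controls 1 to 6, 10 against controls 4 to 6 and 6 against the other times, with key astrocyte and inflammation genes and members of 34 lists. A list gene stands by its brightest probe set. Members and lists were chosen with earlier results of these data known. Alternatives were floor, filter, normalization, eBayes options, replicate block, fitted arrays and leaving out arrays. Same-numbered arrays at 5 days and in controls did not deviate together (correlations of 0.024, -0.095 and 0.035).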

Additional observations from a re-analysis of the deposited data

Results flagged for a closer look

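Single controls stood far from the other 5 in 13 of 112 probe sets checked by Dixon's criterion. Its rate of about 5% by chance is for independent normal values. These probe sets were partly picked by their values and share the same controls, whose source labels differ. No excess over chance can therefore be read from the count. Control 1 was alone at 1496.3 for Ccl5, at 6721.8 for Igfbp2, at 20.2 for Scn9a and at 7.0 for Syn2. Control 2 was alone at 856.3 for Nes, at 19.7 for S100b, at 23.6 for Pdgfb and at 118.3 for Il1rn. Control 3 was alone at 36.5 for Slc1a2 (U15098_at). Control 4 was alone at 19.4 for P2rx1 and at 120.4 for Prkcz, control 5 at 36.9 for Bdnf, and control 6 at 43.9 for Kcnma1. These controls enter the folds above.

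For 11 named genes, Tf by 2 probe sets, the arrays at 5 days differed from the mean of the other times by limma's test of that difference. The log2 differences were 3.44 for C3, 2.21 for Slc6a15, 1.75 and 2.54 for Tf, 1.75 for Grik5, 1.73 for Atp1b2, 1.61 for Mt1 and 1.57 for Nr4a1. They were -1.03 for Itgb3, -1.33 for Ncs1 and -1.59 for Cd44. For Kcnma1 by U55995_at the fitted value was -1.44, but it depends on the floor, since all 3 arrays at 5 days lay under it and overlapped those at 3 days, and AF083341_s_at of Kcnma1 had 0.75. The adjusted p-values by limma lay from 0.00445 to 0.0497 (n = 3 at 5 days and 9 at the other times). Without the filter on dim probe sets only Tf and Atp1b2 of these genes stayed past the threshold, and without the exposed arrays that resembled controls 1 and 2 none did, with a smallest adjusted p of 0.0742.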

How the results depend on the processing

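The count against controls 1 to 6 was 0, and it was also 0 without the filter, with the floor at the 5th percentile, with trend and robust options, with the arrays of both groups alone, and without controls 1 and 2. It was 1 with the floor at the 20th percentile and 2 with quantile normalization, median centring or cyclic loess, all of them Tf. Leaving out single arrays gave 0 to 2 calls. With the replicate number as a block the count was 61 (40 higher and 21 lower). Numbers 4 to 6 occur only among controls, so the fold in this fit is against controls 1 to 3 alone. For C3, by M29866_s_at, it was 4.36 on the log2 scale, the same as against controls 1 to 3. The labels give no meaning to shared numbers, and same-numbered arrays did not deviate together. Against controls 4 to 6 the count was 0 under every alternative run, except that leaving out single arrays gave 0 to 1. No paired analysis was possible for controls 4 to 6 because they share no number with the arrays at 5 days. Against the other times the count of 22 became 4 without the filter, 35 with cyclic loess, 39 with trend and robust options and 74 with the replicate block. It was 17 to 23 in the other alternatives and 1 to 26 when single arrays were left out. It was 0 without 12 hours, 1 day array 3 and 3 days array 3, an alternative chosen after seeing the data. No called fold changed sign in these alternatives. Most of the lower genes had signals of about 100 or less, where small additive errors weigh most. The causes of these changes were not tested.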

Other observations

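Proteoglycans of the brain matrix had signals in controls 4 to 6 that overlapped those at 5 days. Ncan, for neurocan, had 2575, 4367 and 4639 at 5 days and 145, 57.3, 1788, 2105, 3576 and 3292 in controls. Bcan, for brevican, had 2100.2, 1549 and 1745 at 5 days and 182, 173, 542, 2235, 1188 and 1397 in controls. Their log2 folds were 2.14 and 1.5 against controls 1 to 6 but 0.36 and 0.2 against controls 4 to 6. Cntf, a neurotrophic cytokine of astrocytes, had 1546, 1637 and 1668 at 5 days and 118, 126, 1624, 1982, 1757 and 1892 in controls, with controls 1 and 2 alone dim. Sst, the somatostatin precursor of inhibitory neurons, had 22.2, 21 and 27.7 at 5 days and 1425, 644, 42.7, 43.9, 30.1 and 32.6 in controls by M25890_at. Controls 1 and 2 alone were bright, and all arrays at 5 days lay below all controls. The second Sst probe set, K02248cds_s_at, had 37.7, 41.6 and 35.1 at 5 days and overlapped control 6 at 36.9. Its log2 fold was -1.25 against controls 1 to 6 and -0.16 against controls 4 to 6. Map2, a microtubule protein of neurons, had 419.5, 545 and 532 at 5 days and 74, 31.1, 444, 632, 582 and 258 in controls.

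Fosl1, an immediate early transcription factor, had 254, 672 and 592 at 5 days and 1732, 61.1, 81.1, 478, 438 and 575 in controls. Pdgfra, a receptor of glial progenitors, had 442, 783 and 830.1 at 5 days and 1064, 808, 137, 558, 389 and 318 in controls. Ptgs1, the constitutive prostaglandin synthase, had 284, 633 and 502 at 5 days and 112, 127, 627, 87, 421 and 423 in controls. The groups overlap for each of these 3 genes, and none passed the test.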
